A study of Mus musculus with 586 samples.

Results

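The genes described here are 63 of the 23361 genes listed in all 18 expression tables of a spatial RNA-seq study of the mouse gastrula. They were chosen by symbol: ephrins (Efn), Eph receptors, semaphorins (Sema), plexins (Plxn), neuropilins (Nrp), slits, robos, Ntn1, Ntn4 and Unc5b. The rule reads gene symbols only. The samples were small pieces cut by laser microdissection from serial frozen cross-sections of C57BL/6 embryos, and the labels name no treatment or mutation, so every group was unmanipulated. Each table holds 1 embryo, and 473 libraries could be tied to a sample: E5.5 has 22 libraries of 2 embryos, E6.0 has 22 of 2, E6.5 has 109 of 6, E7.0 has 101 of 2 and E7.5 has 219 of 6. The region codes are not spelled out in the labels and are read here as in the published atlas of this kind of material. P and A are the posterior and anterior epiblast (at E7.0 and E7.5, P is the side of the primitive streak), EP and EA the posterior and anterior endoderm, M, MP and MA the mesoderm, VE the visceral endoderm, L and R the left and right epiblast. Section 1 is the distal tip and higher numbers are more proximal.

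Guidance molecules let a cell read its neighbours. Ephrin A ligands are tethered to the membrane by a lipid anchor and bind mainly EphA receptors, ephrin B ligands span the membrane and bind mainly EphB receptors, and Epha4 is known to bind ephrins of both classes. Class 3 semaphorins are secreted and act through neuropilins with plexins, semaphorins of the other vertebrate classes are mostly membrane proteins that bind plexins, slits bind robos, and netrins bind receptors such as Unc5b. These systems are best known from growing axons and blood vessels, where contact often makes cells withdraw or sort apart. In the mouse gastrula, Epha2 is known as an early gene of the distal primitive streak and node.

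The promoters of 3 members on which the results below turn are shown: Epha1, the most abundant member, and Epha2 and Efna1, a receptor and a ligand that ran in opposite directions along the streak. Each window holds 300 bases of RefSeq sequence on GRCm38.p6, mostly upstream of the annotated start, on the gene's strand. They lie at chr4:141300971-141301270 (plus strand) for Epha2, at chr3:89280902-89281201 (minus strand) for Efna1 and at chr6:42373219-42373518 (minus strand) for Epha1. Capitals mark a TCF/LEF core (CTTTGAT or CTTTGAA) in Epha2 and a T-box core (TCACACC) in Efna1.
Epha2: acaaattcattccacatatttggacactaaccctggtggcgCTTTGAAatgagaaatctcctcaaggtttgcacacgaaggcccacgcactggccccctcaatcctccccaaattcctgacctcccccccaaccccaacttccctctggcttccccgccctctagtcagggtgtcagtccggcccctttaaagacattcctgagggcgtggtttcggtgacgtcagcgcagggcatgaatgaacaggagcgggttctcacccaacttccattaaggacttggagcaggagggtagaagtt
Efna1: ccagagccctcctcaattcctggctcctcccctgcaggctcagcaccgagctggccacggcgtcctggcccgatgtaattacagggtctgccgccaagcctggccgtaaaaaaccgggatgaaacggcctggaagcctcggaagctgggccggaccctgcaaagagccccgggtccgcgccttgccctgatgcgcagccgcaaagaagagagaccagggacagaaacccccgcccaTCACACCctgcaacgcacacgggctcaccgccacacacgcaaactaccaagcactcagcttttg
Epha1: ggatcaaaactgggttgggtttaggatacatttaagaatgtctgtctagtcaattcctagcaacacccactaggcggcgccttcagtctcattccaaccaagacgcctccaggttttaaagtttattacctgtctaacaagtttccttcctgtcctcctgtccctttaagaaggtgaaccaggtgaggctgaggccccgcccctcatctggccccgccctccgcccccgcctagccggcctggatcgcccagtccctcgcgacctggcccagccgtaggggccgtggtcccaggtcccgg
Both strands were searched. The T-box core was present in 3.98% of all 32851 promoter windows of this length and, among the 55 members with a window, in those of Efna1, Nrp2, Sema4a and Sema6c. The TCF/LEF core was present in 8.65% of all windows and in those of Epha2, Nrp2 and Sema3e. A FOXH1 core (AATACACA or AATCCACA) was present in 1.82% of all windows and, among members, in that of Sema3e. The Epha1 window held none of these letters, nor did a further RefSeq window of Efna1, at chr3:89279596-89279895 (minus strand), which is not printed, and a match is a description of the letters only.

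Values are FPKM (fragments scaled by transcript length and by the number of mapped fragments) as deposited, so levels can be set side by side between genes. Library depth, estimated from the smallest steps of the values, had a median per embryo of 2080000 to 10600000 reads, at which 1 read on a transcript of 3000 bases is worth 0.0315 to 0.16 FPKM. A level under about 1 FPKM therefore rests on few reads. Regions of 1 embryo share its collection and sequencing, so regions were compared within sections of the same embryo and the embryo was the replicate. A difference is the mean over embryos of log2(FPKM + 1) in the region named before minus that in the region named after it, which understates the change of low genes. The test was limma across all genes with a mean of at least 1 FPKM in some stage, with Benjamini-Hochberg adjustment over all of them and a threshold of 0.05. In a piece of tissue, fewer cells of a type and less RNA per cell cannot be told apart.

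Marker genes matched the codes of the epiblast sides at E7.5 and of the endoderm from E6.5 to E7.5. The summed level of 6 streak markers had a median over embryos of 652 FPKM in P and 30.3 FPKM in A at E7.5, where no P value was as low as the highest of A, 154.5 FPKM, and 5 anterior epiblast markers summed to 4.62 to 9.12 FPKM in P and 57.9 to 271 FPKM in A. At the earliest stages these lists did not set the sides apart in this way. At E5.5 the anterior markers summed to 145 to 150 FPKM in P and 108 to 129 FPKM in A. At E6.0 they summed to 197 to 246 FPKM in P and 259 to 265 FPKM in A. The streak markers summed to 9.02 to 13.6 FPKM in P and 15.1 to 19.5 FPKM in A at E6.0, and overlapped at E5.5. The sum of 8 endoderm markers was 425 to 3678 FPKM in EP and EA and 37.2 to 302 FPKM in P and A from E6.5 to E7.5. At E5.5 this sum was 326.5 to 396.4 FPKM in P and 280.0 to 449.6 FPKM in A, which reaches the range of the endoderm pieces. At E6.0 it was 103.6 to 351.6 FPKM in P and 120.2 to 348.2 FPKM in A. Its part in the E5.5 and E6.0 levels of the members was not tested. The summed level of 7 mesoderm markers did not set mesoderm apart from P: its median was 237 FPKM in M and 245 FPKM in P at E7.0, and 164 FPKM in MP, 89.7 FPKM in MA and 159 FPKM in P at E7.5. One of these markers, the receptor Pdgfra, was at 3.71 to 10.9 FPKM in mesoderm, 1.80 to 4.01 FPKM in EP and EA, 1.65 to 5.77 FPKM in P and at most 0.841 FPKM in A at these stages. Its mesoderm range thus overlapped that of P, and the other markers of this list are not given singly. Endoderm pieces also held RNA of maternal blood or decidua: 9 such markers, led by Hba-a1, summed to 872 to 11400 FPKM in EP and EA at E7.0 and E7.5, against 40.15 to 1065 FPKM in P and A. These are values per embryo, and single epiblast pieces held more. At E7.5, Hba-a1 was at 1876, 2204 and 2655 FPKM in P sections 4, 7 and 8 of embryo 5. It was at 8266 FPKM in A section 9 of embryo 1. Its part in the levels of the members there was not tested. At E6.0, the P piece of section 5 of embryo 1 stood apart from its neighbours. It had 36.5 FPKM of Nrp1, while the other 3 P sections of that embryo had 0.102 to 0.270 FPKM, and 24.1 FPKM of Epha7, together with 1083 FPKM of Hba-a1, 6.18 FPKM of the endothelial gene Pecam1 and 0.575 FPKM of the epiblast gene Pou3f1. It also had 11.3 FPKM of Efnb1, 6.54 FPKM of Sema6d and 3.29 FPKM of Slit2. E6.0 means of Nrp1, Nrp2, Epha3, Epha7, Efnb1, Sema6d and Slit2 in P, among others, rest on this piece. Without it Epha3 falls out of the counts below. In the P piece of section 1 of E7.5 embryo 6, 1 gene (Scarna3b) held 71.9% of the FPKM sum.

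Most members were detected at low levels. All 63 had a value above 0 somewhere, 61 reached 1 FPKM in at least 1 library, 42 reached a mean of 1 FPKM in at least 1 of 20 groups of stage and region (41 without the E6.0 library that stood apart), 19 reached 5 FPKM, 6 reached 10 FPKM and 3 reached 20 FPKM. The other 21 stayed below 1 FPKM in each of those groups. Averaged over the groups with equal weight, the most abundant were Epha1 (10.02 FPKM), Efna4 (7.39 FPKM), Epha4 (5.58 FPKM), Sema6a (5.09 FPKM), Plxnb2 (3.97 FPKM), Efna5 (3.95 FPKM), Epha2 (3.55 FPKM) and Unc5b (3.43 FPKM). Receptors and ligands of the Eph system thus held 5 of the 8 highest means. The leading members of the other families were Ephb4 among EphB receptors, Efnb2 among ephrin B ligands, Sema3f among class 3 semaphorins, Nrp1, Robo1 and Slit3.

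**Figure D1:**
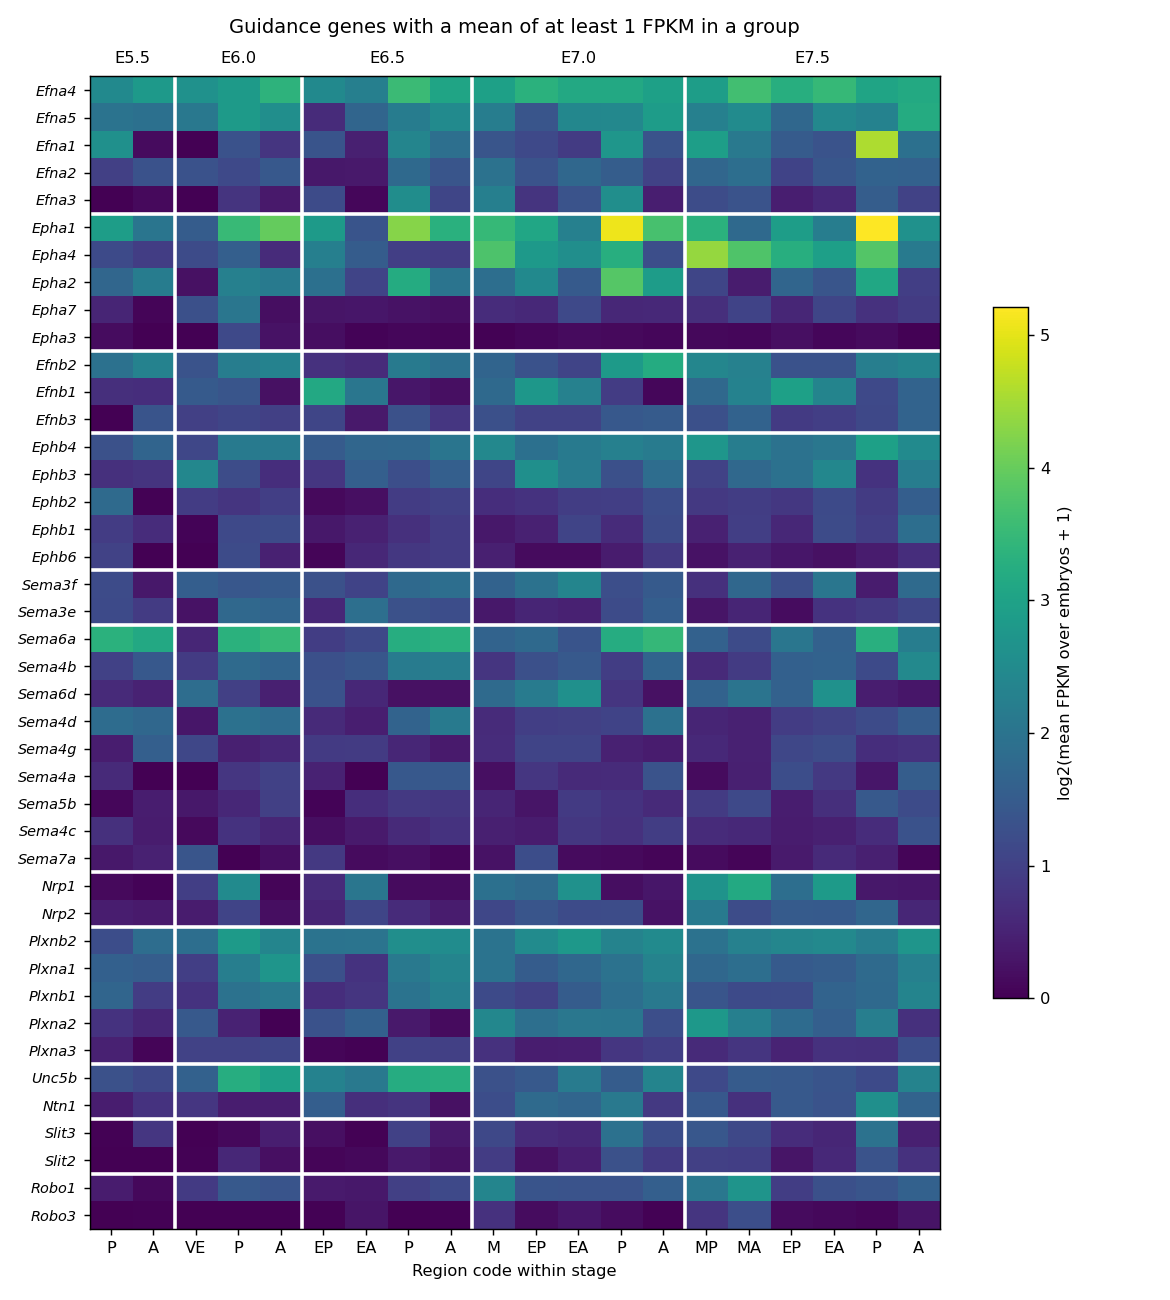
Level of the 42 members that reached a mean of 1 FPKM in at least 1 group, as log2(mean FPKM + 1) over embryos (colour), with genes in rows by family and regions in columns by stage. Epha1 is brightest in P at E7.0 and E7.5, Efna1 in P at E7.5, Epha4 in MP at E7.5, and Nrp1 in mesoderm and EA.

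Family by family, 5 of 9 EphA receptors (4 without the E6.0 library that stood apart), all 5 EphB receptors, all 5 ephrin A and all 3 ephrin B ligands reached 1 FPKM in some group. The same level was reached by 2 of 7 class 3 semaphorins, 9 of 13 semaphorins of classes 4 to 7, 5 of 9 plexins, both neuropilins, 2 of 4 robos, 2 of 3 slits, Ntn1 and Unc5b. By highest mean, 8 members peaked in A at E7.5, 7 in P at E7.5 (Efna1, Epha1, Ephb4, Ntn1, Sema5b, Slit2 and Slit3), 4 in MA (Efna4, Nrp1, Robo1 and Robo3) and 3 in MP (Epha4, Nrp2 and Plxna2). E7.5 has more of these groups than any other stage, and the share over all genes was not worked out. Lateral pieces are not among the groups. In E7.5 embryo 3, Ntn1 was at 7.52 FPKM in the left piece L2 and 7.19 FPKM in P.

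Several abundant members were not called between the sides of the epiblast. Efna4, the leading ephrin A ligand, averaged 7.25 ± 3.76 FPKM in P (SD, n = 4) and 7.98 ± 4.73 FPKM in A (SD, n = 6) at E7.5. Plxnb2, a receptor of class 4 semaphorins, averaged 3.69 ± 1.21 FPKM in P (n = 4) and 5.56 ± 3.48 FPKM in A (n = 6) at E7.5. Efnb2, the ligand best known as the partner of Ephb4 in arteries and veins, averaged 3.66 ± 0.87 FPKM in P and 4.12 ± 2.03 FPKM in A at E7.5. These means take all sections, and those of A include embryos that have no P. The test took only sections with both regions, in 4 embryos. There Efna4 averaged 6.5 FPKM in P and 5.2 FPKM in A, Plxnb2 3.5 and 3.4 FPKM, and Efnb2 3.2 and 3.5 FPKM. None of these 3 passed the test between P and A at E7.5. Their differences were 0.26 ± 0.32 (SE) for Efna4, 0.09 ± 0.14 for Plxnb2 and 0.03 ± 0.20 for Efnb2.

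At E5.5, 34 members were tested and 0 were higher and 1 lower in P, where 12.2% and 2.69% of all 11260 genes were called. Plxnb2 was at 0.734 and 1.98 FPKM in P and 2.54 and 2.70 FPKM in A of the 2 embryos (-0.65 ± 0.19, SE, limma, adjusted p = 0.0323), and this call was not made when the E5.5 embryos were fitted alone. The largest difference was that of Efna1, an ephrin A ligand, at 7.39 and 2.89 FPKM in P and 0.0549 and 0.168 FPKM in A. Both P values lay above both A values, but the difference of 1.16 ± 0.48 did not pass the test (adjusted p = 0.114). Efnb3, an ephrin B ligand, was at 0 and 0.0251 FPKM in P and 1.16 and 1.92 FPKM in A, without overlap and just outside the threshold (-0.82 ± 0.27, adjusted p = 0.0511). At E6.0 no member and no gene was called by limma (0% of genes), with 6 members and 1362 genes at an unadjusted p under 0.05.

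At E6.5, when streak markers were high in P, 3 members rose in P and none fell, while 0.373% of all genes were called higher and 0.0355% lower. These were the receptors Epha1 and Epha2 and the ligand Efna3. Epha2 had a lowest, median and highest level of 3.18, 8.86 and 11.7 FPKM in P and 0.699, 2.67 and 5.92 FPKM in A over 6 embryos. The ranges overlapped, but P was above A in 6 of 6 embryos, by 1.10 ± 0.20 (SE, limma, adjusted p = 0.0212). Efna3 was at 0.974, 4.99 and 8.60 FPKM in P and 0.0822, 1.25 and 2.01 FPKM in A (1.08 ± 0.21, adjusted p = 0.032, 6 of 6 embryos). Epha1 was at 8.87, 19.5 and 21.9 FPKM in P and 4.74, 8.58 and 13.0 FPKM in A (0.87 ± 0.18, adjusted p = 0.0433, 6 of 6 embryos). The median difference of the 34 members was 0.02, against -0.01 for all genes. The 3 calls are near the threshold: 0 remained after rescaling libraries to an equal sum, with a pseudocount of 0.1 or without the embryo block, and at most 1 after leaving out any of the 6 embryos.

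At E7.0, 7 members rose in P and 2 fell, against 1.77% of all genes higher and 1.81% lower (3.58% in either direction). Epha2 was at 8.57 and 17.2 FPKM in P and 0.455 and 2.01 FPKM in A of the 2 embryos (2.58 ± 0.35, adjusted p = 5.99e-04), and Epha1 at 22.9 and 49.98 FPKM in P and 3.59 and 14.1 FPKM in A (2.06 ± 0.31, adjusted p = 0.00132). Ntn1, the netrin ligand, was at 2.03 and 5.82 FPKM in P and 0.0147 and 0.448 FPKM in A (1.92 ± 0.27, adjusted p = 7.82e-04). Embryo 2 had the higher level in both regions for these 3 genes, and for each of the 9 called members the regions did not overlap. The calls rest on these same values, so the lack of overlap is no separate support. Plxna2, a plexin that binds class 6 semaphorins, was at 2.21 and 4.11 FPKM in P and 0.240 and 0.185 FPKM in A (1.70 ± 0.27, adjusted p = 0.00159). Epha4 was at 4.10 and 17.6 FPKM in P and 0.900 and 2.23 FPKM in A (1.70 ± 0.30, adjusted p = 0.00371). Efna3 was at 2.67 and 4.22 FPKM in P and 0 and 0.936 FPKM in A (1.50 ± 0.37, adjusted p = 0.0294). The remaining rise was that of Slit3, a secreted ligand of robos, at 1.58 and 3.83 FPKM in P and 0.0814 and 0.951 FPKM in A (1.26 ± 0.27, adjusted p = 0.0135). The falls were in class 4 semaphorins: Sema4d was at 0.924 and 1.03 FPKM in P and 2.17 and 4.45 FPKM in A (-1.11 ± 0.24, adjusted p = 0.0158), and Sema4a at 0.0958 and 0.809 FPKM in P and 0.998 and 2.76 FPKM in A (-0.98 ± 0.26, adjusted p = 0.0495). With 2 embryos these calls borrow the spread of the other stages: none was made with the E7.0 embryos alone, 3 were made without the embryo block and 2 without embryo 2. With section 1 of embryo 2 added, 7 members were called, all of them rises.

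At E7.5, 14 of 34 members were called. In P, 8 rose and 6 fell, while 10.1% of all genes were called higher and 3.13% lower. The values below are from embryos 3, 4, 5 and 6, in that order, the 4 that had both regions. They are means over the sections with both regions, 9 in embryo 3 and 3 in each of the others.

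The rises were led by EphA receptors, of which 3 of the 4 tested rose. Epha1 was at 40.9, 14.2, 25.7 and 59.7 FPKM in P and 4.61, 1.56, 3.66 and 10.8 FPKM in A. Every P value was above every A value, with a difference of 2.64 ± 0.22 (SE, limma, adjusted p = 5.32e-07). Epha1 shares 156 exonic bases with Zyx on the opposite strand, the labels state no stranded counting, and Zyx itself was higher in P (means of 33.6 FPKM in P and 11.8 FPKM in A over all sections, 2.17 ± 0.24, adjusted p = 8.85e-06), so reads of the 2 genes cannot be told apart there. Epha2 was at 7.30, 3.16, 3.22 and 11.9 FPKM in P and 0.209, 0, 0.118 and 0.970 FPKM in A (2.09 ± 0.25, adjusted p = 1.63e-05). Epha4 was at 11.4, 6.39, 11.2 and 17.3 FPKM in P and 3.15, 1.23, 4.05 and 5.15 FPKM in A (1.58 ± 0.21, adjusted p = 7.41e-05). For these receptors too the regions did not overlap. Summed over the family, EphA receptors reached 57.8 ± 21.3 FPKM in P (SD, n = 4) and 11.3 ± 4.70 FPKM in A (SD, n = 6).

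Ligands of several systems rose beside them. Efna1, an ephrin A ligand, was at 30.003, 2.70, 15.7 and 37.4 FPKM in P and 2.48, 0.357, 4.94 and 3.94 FPKM in A (2.31 ± 0.34, adjusted p = 1.74e-04). Embryo 4 was low in both regions of these sections, so the ranges overlapped although P was higher in 4 of 4 embryos. Over all its P sections, embryo 4 had 7.59 FPKM of Efna1. Ntn1 was at 7.33, 3.50, 4.64 and 2.73 FPKM in P and 1.59, 0.188, 0.693 and 0.168 FPKM in A (1.84 ± 0.19, adjusted p = 4.59e-06), with no overlap. Plxna2 was at 2.53, 2.31, 2.76 and 3.59 FPKM in P and 0.320, 0.992, 0.114 and 0.184 FPKM in A (1.48 ± 0.19, adjusted p = 3.52e-05), again with no overlap. The other rises were those of Slit3 (1.31 ± 0.19, adjusted p = 1.79e-04) and Sema6a (1.24 ± 0.15, adjusted p = 2.78e-05). Sema6a, a membrane semaphorin and a ligand of Plxna2, averaged 9.15 FPKM in P and 3.54 FPKM in A in the same sections.

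The 6 members that fell in P were 2 EphB receptors, 2 semaphorins, a netrin receptor and an ephrin A ligand. Ephb3, an EphB receptor, was at 0.582, 0.335, 0.581 and 0.432 FPKM in P and 4.35, 2.20, 2.45 and 2.34 FPKM in A (-1.26 ± 0.23, adjusted p = 0.00142). Sema4a, a class 4 semaphorin, was at 0.131, 0.0545, 0.115 and 0.0391 FPKM in P and 1.79, 1.30, 1.84 and 1.72 FPKM in A (-1.09 ± 0.19, adjusted p = 7.5e-04). Ephb1 was at 0.894, 0.739, 1.64 and 0.828 FPKM in P and 2.58, 2.63, 4.31 and 2.22 FPKM in A (-0.80 ± 0.21, adjusted p = 0.0155). For these 3 genes every P value lay below every A value. The secreted Sema3f was at 0.492, 0.0972, 0.131 and 0.237 FPKM in P and 2.46, 0.108, 2.33 and 3.29 FPKM in A (-1.08 ± 0.25, adjusted p = 0.00911), with embryo 4 low on both sides. Unc5b was at 1.80, 0.738, 0.933 and 1.50 FPKM in P and 5.07, 0.949, 1.84 and 6.19 FPKM in A (-0.87 ± 0.23, adjusted p = 0.0206). The ephrin A ligand Efna5 was at 4.82, 2.30, 3.86 and 3.81 FPKM in P and 7.503, 3.69, 8.66 and 10.2 FPKM in A (-0.79 ± 0.21, adjusted p = 0.0225). Both overlapped between the regions while being lower in P in 4 of 4 embryos.

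Within families the direction was therefore mixed. Of 5 ephrin A ligands 1 rose and 1 fell, of 4 tested EphB receptors 2 fell, of 2 tested ephrin B ligands none was called, and Ntn1 and its receptor Unc5b went opposite ways. The median difference was 0.02 for the 34 members and 0.16 for all genes. All 14 had the same sign in 4 of 4 embryos, which is no separate support, since the calls rest on these same differences. Of the 14, 9 (Efna1, Epha1, Epha2, Epha4, Ephb3, Ntn1, Plxna2, Sema4a and Slit3) stayed called in each alternative that tested them. With the 4 embryos fitted alone 9 were called, without the embryo block 9, and with section 1 added 16, Sema5b and Slit2 as well. Streak and mesoderm markers (6 of 6 and 6 of 6 tested higher in P) and anterior epiblast markers (5 of 5 lower) moved with these members, and their part in the result was not tested.

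**Figure D2:**
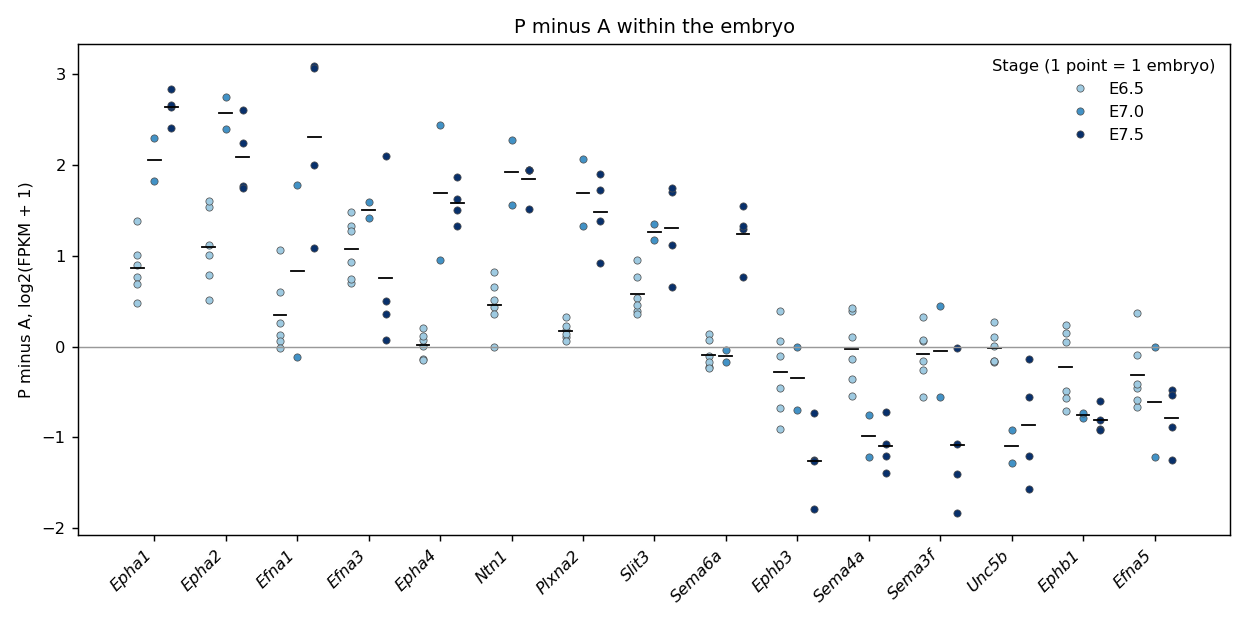
Difference between P and A in log2(FPKM + 1) for 15 members at E6.5, E7.0 and E7.5, where each point is 1 embryo, the bar is the mean and 0 means equal levels. At E7.5 Epha1, Epha2, Efna1, Epha4, Ntn1, Plxna2, Slit3 and Sema6a lie above 0 in 4 of 4 embryos, and Ephb3, Sema4a, Sema3f, Unc5b, Ephb1 and Efna5 lie below 0.

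The change of the difference between P and A was itself tested, E7.5 minus E6.5, in the same model. It passed for 7 members (6 higher, 1 lower), against 2.72% and 0.764% of all genes. The gain in P relative to A was 1.96 ± 0.43 for Efna1 (adjusted p = 0.0155), 1.76 ± 0.29 for Epha1 (0.00142), 1.56 ± 0.28 for Epha4 (0.00278), 1.38 ± 0.25 for Ntn1 (0.00302), 1.33 ± 0.20 for Sema6a (adjusted p = 6.74e-04) and 1.31 ± 0.24 for Plxna2 (0.00404). Sema4a moved the other way, with -1.07 ± 0.24 (adjusted p = 0.0169). For Epha2 the change was 0.99 ± 0.32 and did not pass (adjusted p = 0.104).

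Levels within P changed between the stages. Between P at E7.5 (4 embryos) and P at E6.5 (6 embryos), on libraries rescaled to the same sum, 11 of 46 tested members rose and 3 fell, against 6.7% and 2.09% of all genes (8.79% in either direction). Epha4 averaged 13.0 ± 4.13 FPKM at E7.5 and 0.962 ± 0.233 FPKM at E6.5 (SD), a difference of 3.51 ± 0.33 (SE, adjusted p = 2.42e-07). Ntn1 averaged 5.04 ± 1.65 FPKM at E7.5 and 0.717 ± 0.363 FPKM at E6.5 (2.70 ± 0.32). Plxna2 averaged 3.68 ± 0.746 FPKM at E7.5 and 0.280 ± 0.10 FPKM at E6.5 (2.61 ± 0.29). For each of these 3 the E7.5 embryos all lay above the E6.5 embryos.

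Efna1 averaged 22.8 ± 11.4 FPKM at E7.5 and 4.19 ± 2.12 FPKM at E6.5 (2.31 ± 0.36, adjusted p = 1.77e-04), and Ephb4, the EphB receptor of Efnb2, 6.74 ± 1.99 FPKM and 2.33 ± 0.876 FPKM at the same stages (1.73 ± 0.30). Slit3 (1.58 ± 0.24), Slit2, Epha1, Nrp2, Efnb1 and Robo4 completed the list of rises, with differences of 0.77 to 1.58. The call of Epha1 was lost with values as deposited (adjusted p = 0.247) and after rescaling to an equal median (adjusted p = 0.0711). Unc5b was the member that fell most, to 1.26 ± 0.578 FPKM at E7.5 against 8.42 ± 2.73 FPKM at E6.5 (-2.12 ± 0.27, adjusted p = 1.16e-05). Sema3f was at 0.320 ± 0.139 FPKM at E7.5 and 2.42 ± 1.08 FPKM at E6.5 (-1.48 ± 0.28), and Sema4a at 0.240 ± 0.255 FPKM at E7.5 and 1.71 ± 0.719 FPKM at E6.5 (-1.38 ± 0.23).

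In A, 3 members changed. Of 42 tested, 2 were higher and 1 lower at E7.5 than at E6.5 (6 embryos each), against 1.38% and 0.683% of all genes. Epha4 had a lowest and highest level of 1.23 and 5.15 FPKM at E7.5 and 0.533 and 1.30 FPKM at E6.5 (1.47 ± 0.33, adjusted p = 0.0198). Epha7, an EphA receptor, ran from 0.353 to 1.28 FPKM at E7.5 and from 0.105 to 0.206 FPKM at E6.5 (1.07 ± 0.27, adjusted p = 0.04). Epha2 ran from 0 to 2.23 FPKM at E7.5 and from 0.699 to 5.92 FPKM at E6.5 (-1.73 ± 0.31, adjusted p = 0.00294), and kept its call in each alternative run. Rescaling to an equal median gave 1 higher and 5 lower members. Stage and embryo cohort cannot be told apart in these comparisons.

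**Figure D3:**
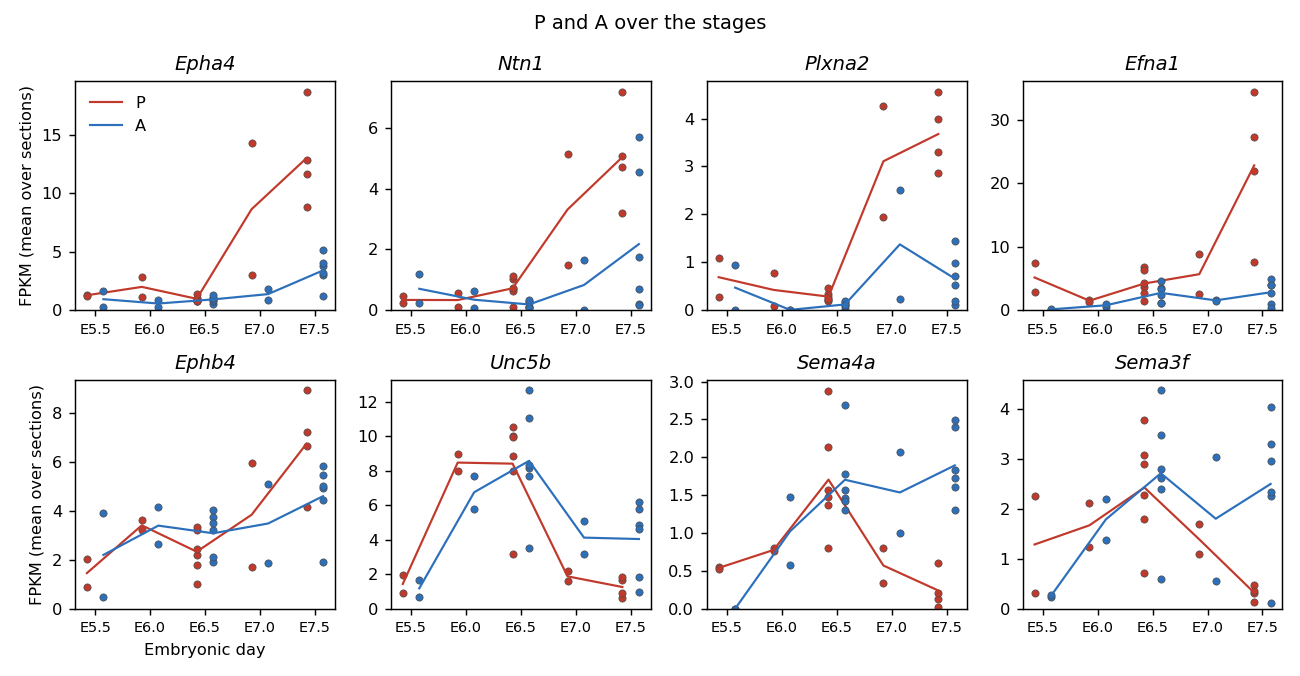
FPKM of 8 members in P (red, left of each day) and A (blue, right of each day) from E5.5 to E7.5, with each point the mean over sections of 1 embryo and lines through the stage means. Epha4, Ntn1, Plxna2 and Efna1 are high in P at E7.5, and Unc5b, Sema4a and Sema3f are lower in P than in A at E7.5.

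Along the streak, the ligand Efna1 and the receptor Epha2, of the same class, ran in opposite directions. A slope was fitted in each embryo against section position, with the distal end of its sections set to 0 and the proximal end to 1, so that it is the fitted proximal minus distal value of log2(FPKM + 1). At E7.5, 30 members were tested and 2 rose and 1 fell towards the proximal end, against 8.53% and 0.804% of all genes (9.34% in either direction). The share of members called in either direction is thus near that of all genes. Efna1 was at 118, 37.1, 65.9 and 84.5 FPKM in section 10 and at 3.97, 5.62, 1.63 and 1.27 FPKM in section 1 of embryos 3, 4, 5 and 6. Its slope was 3.98 ± 0.59 (SE, limma, adjusted p = 3.2e-04) and stayed called in each alternative run, with 3.70 (adjusted p = 7.24e-04) without the libraries in which 1 gene held over 50% of the sum, section 1 of embryo 6 among them.

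Epha2 ran the other way, with 1.53, 0.903, 0.328 and 0.814 FPKM in section 10 and 11.5, 22.2, 14.7 and 31.0 FPKM in section 1 of the same embryos. Its slope was -3.29 ± 0.48 (adjusted p = 2.7e-04) with -3.22 (adjusted p = 7.24e-04) without those libraries and -2.84 (adjusted p = 0.00122) without section 1. The call was lost with the E7.5 embryos fitted alone. Averaged over the distal, middle and proximal sections of P, Epha2 was at 13.9, 6.23 and 2.09 FPKM and Efna1 at 5.28, 15.4 and 44.1 FPKM. Epha1 was at 34.2, 42.0 and 34.9 FPKM over the same sections, with no call of its slope. The other call, Efna4 (1.17 ± 0.35, adjusted p = 0.0411), was lost in 10 of 11 alternatives. Rescaling to an equal sum gave 1 rise and 1 fall, and to an equal median 1 rise and 2 falls.

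**Figure D4:**
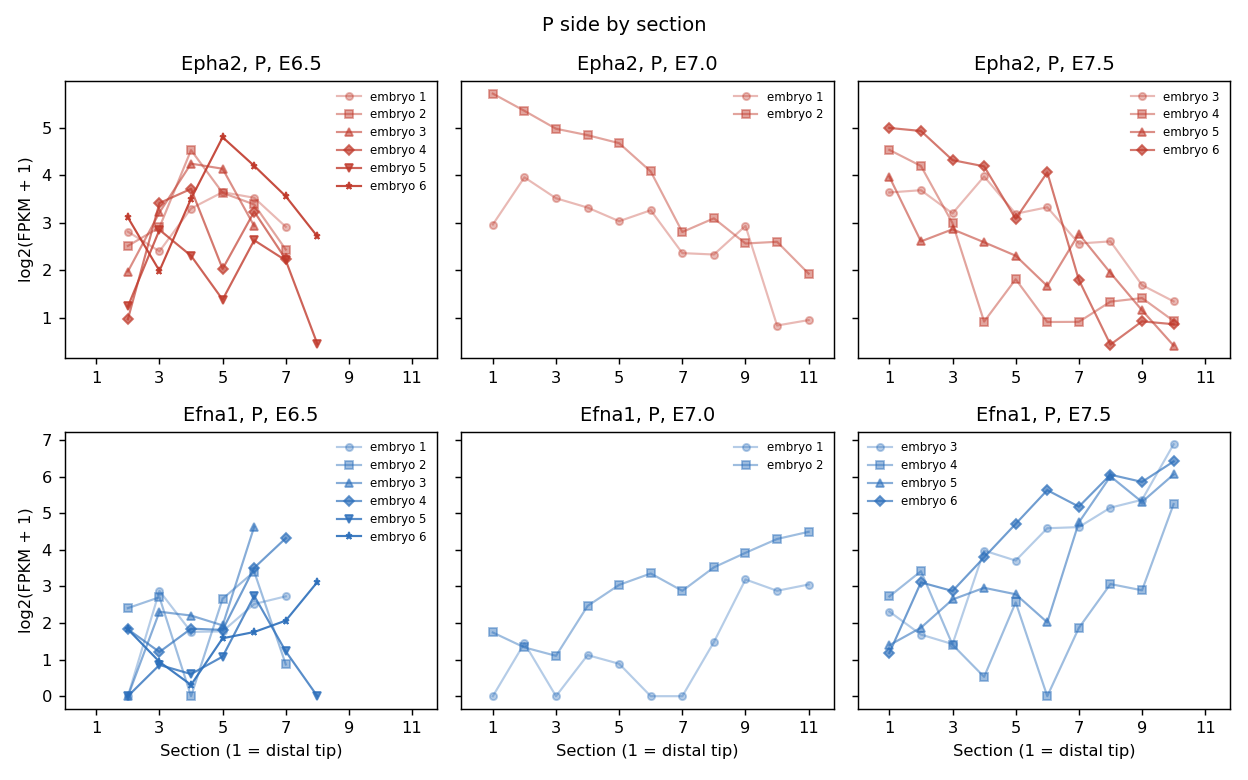
Level of the receptor Epha2 (top) and the ligand Efna1 (bottom) as log2(FPKM + 1) by section, from distal (left) to proximal (right), in P at E6.5, E7.0 and E7.5, with 1 line per embryo. At E7.0 and E7.5 Epha2 is high in distal sections and Efna1 in proximal ones, and at E6.5 Epha2 has no such fall.

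The same opposition was present at E7.0, where 4 members rose and 4 fell towards the proximal end, against 1.01% and 2.1% of all genes (3.12% in either direction). Efna1 was at 7.31 and 21.6 FPKM in section 11 and 0 and 2.35 FPKM in section 1 of the 2 embryos (3.02 ± 0.83, adjusted p = 0.0422). Epha2 was at 0.927 and 2.80 FPKM in section 11 and 6.80 and 51.9 FPKM in section 1 (-3.17 ± 0.68, adjusted p = 0.00567). Epha4 was at 6.82 and 15.8 FPKM in section 11 and 0.562 and 1.61 FPKM in section 1 (2.92 ± 0.50, adjusted p = 5.84e-04). Efna3 (2.30 ± 0.63) and Nrp2 (1.69 ± 0.47) were the other rises, and Efnb2 (-2.38 ± 0.49), Sema3f (-1.90 ± 0.51) and Ephb3 (-1.75 ± 0.48) the other falls. Leaving out 1 embryo left 1 call without embryo 2, and at most 6.

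At E6.5, 7 members rose towards the proximal end and none fell, against 10.7% and 0.43% of all genes, whose median slope was 0.40. Efna3 was the steepest, at 0.895, 2.83 and 10.2 FPKM in the distal, middle and proximal sections (2.91 ± 0.37, adjusted p = 6.26e-06, 6 of 6 embryos). The other 6 were Efna1 (1.66 ± 0.48), Efna4 (1.46 ± 0.29), Epha4 (1.05 ± 0.29), Efnb2 (0.94 ± 0.28), Nrp2 (0.91 ± 0.27) and Epha1 (0.87 ± 0.27). After rescaling to an equal sum or an equal median, Efna3 alone was called. Epha2 was not graded in this way, at 5.41, 13.5 and 7.91 FPKM over the same sections, and its slope changed between the stages by -3.65 ± 0.62 (E7.5 minus E6.5, adjusted p = 0.00241), the only member to do so in a test that called 0.201% of all genes higher and 0.459% lower. In A at E6.5 no member was called by limma (0.0105% of genes higher and 0% lower, with 5 members and 424 genes at an unadjusted p under 0.05).

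Marker genes were also graded along P. Streak markers rose towards the proximal end for 6 of 6 tested at E6.5, 2 of 6 at E7.0 and 2 of 6 at E7.5, and mesoderm markers for 4 of 6 at each of these stages. At E7.5, Foxa2, a gene of the anterior streak, node and endoderm, was at 0 to 0.952 FPKM in section 10 and 3.52 to 46.2 FPKM in section 1, and the early mesoderm gene Mesp1 at 28.0 to 210.4 FPKM in section 10 and 0 to 23.3 FPKM in section 1. The part of these gradients in the slopes of the members was not tested.

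Between endoderm and epiblast, members were called in both directions. Over 6 embryos, 2 from each of the stages E6.5 to E7.5, 5 of 31 tested members were higher and 17 lower in endoderm than in epiblast (the mean of EP and EA against the mean of P and A), where 10.9% of all genes were called higher and 59.6% lower (70.5% in all) and the median difference was -0.47. The shares of members called lower and called in either direction are thus near those of all genes. The rises were in Efnb1, Nrp1, Sema6d, Ephb3 and Plxna2. Efnb1, an ephrin B ligand, had a lowest, median and highest level of 2.11, 4.70 and 8.89 FPKM in endoderm and 0.0927, 0.321 and 0.900 FPKM in epiblast, so that the layers did not overlap (1.59 ± 0.21, adjusted p = 1.38e-07). Nrp1, the co-receptor of class 3 semaphorins and of Vegfa, was at 0.782, 3.89 and 5.24 FPKM in endoderm and 0.0486, 0.190 and 0.330 FPKM in epiblast (1.57 ± 0.21, adjusted p = 1.28e-07), also without overlap. Sema6d, a membrane semaphorin that binds Plxna1, was at 0.460, 2.72 and 6.85 FPKM in endoderm and 0.10, 0.203 and 0.413 FPKM in epiblast (1.32 ± 0.20, adjusted p = 8.38e-07).

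Each of these 3 was higher in endoderm in 6 of 6 embryos. Ephb3, whose known partners include Efnb1, was at 0.474, 3.52 and 6.53 FPKM in endoderm and 0.495, 1.45 and 1.93 FPKM in epiblast (0.72 ± 0.16, adjusted p = 2.22e-04, higher in 4 of 6 embryos). Plxna2 was at 0.870, 2.13 and 5.40 FPKM in endoderm and 0.210, 1.33 and 2.15 FPKM in epiblast (0.68 ± 0.17, adjusted p = 8.48e-04).

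The falls were led by members abundant in the epiblast. Epha1 was at 1.65, 4.79 and 9.30 FPKM in endoderm and 6.81, 15.2 and 35.2 FPKM in epiblast (-1.74 ± 0.19, adjusted p = 5.2e-09). Sema6a was at 0.841, 1.87 and 2.63 FPKM in endoderm and 3.61, 7.73 and 13.0 FPKM in epiblast (-1.61 ± 0.20, adjusted p = 8.05e-08), and Efnb2 at 0.419, 0.921 and 1.22 FPKM in endoderm and 1.66, 3.32 and 7.55 FPKM in epiblast (-1.35 ± 0.18, adjusted p = 1.16e-07). Sema6a and Efnb2 did not overlap between the layers. Efna1 (-1.12 ± 0.17), Efna5 (-0.90 ± 0.16) and Plxnb1 (-0.87 ± 0.17), a receptor of Sema4d, followed, and the remaining 11 falls lay between -0.66 and -0.37. Of these 22 calls 14 were also made without the embryo block. Maternal blood markers stood with the endoderm, as given above, and their part in the result was not tested. Between EP and EA no member was called by limma (0% of genes higher and 0.118% lower, with 6 members and 1158 genes at an unadjusted p under 0.05).

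Mesoderm had more Nrp1, Sema6d, Efnb1 and Robo1 than P and less Epha1, Epha2, Sema6a and Efna1. It was compared with P of the same sections in 4 embryos. These were embryos 1 and 2 of E7.0 and 5 and 6 of E7.5, whose values follow in that order. At E7.5 the mesoderm value, here and against endoderm below, is the mean of MP and MA. Of 28 tested members 6 rose and 11 fell, while 3.64% of all genes were called higher and 44.7% lower (48.3% in either direction). The share of members called lower is thus close to that of all genes. Nrp1 was at 2.61, 3.01, 6.12 and 7.33 FPKM in mesoderm and 0.0263, 0.195, 0.247 and 0.237 FPKM in P (1.59 ± 0.25, adjusted p = 0.0125). Sema6d was at 1.34, 3.60, 1.41 and 3.73 FPKM in mesoderm and 0.463, 0.935, 0.271 and 0.476 FPKM in P (1.06 ± 0.21, adjusted p = 0.0125). For both, every mesoderm value was above every P value.

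Efnb1 was at 1.05, 3.85, 2.99 and 3.37 FPKM in mesoderm and 0.363, 1.40, 0.851 and 0.950 FPKM in P (0.94 ± 0.18, adjusted p = 0.0125). Robo1, a slit receptor, was at 2.34, 5.97, 2.79 and 5.90 FPKM in mesoderm and 0.727, 2.56, 1.53 and 3.55 FPKM in P (0.73 ± 0.16, adjusted p = 0.0126). Both overlapped but were higher in mesoderm in 4 of 4 embryos. Sema3f (0.66 ± 0.16) and Plxna2 (0.43 ± 0.13) were the other rises.

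Epha1 was at 4.05, 16.3, 2.62 and 8.81 FPKM in mesoderm and 16.3, 51.3, 31.2 and 53.3 FPKM in P (-2.48 ± 0.24, adjusted p = 0.0113). Epha2 was at 1.08, 4.33, 0.383 and 1.05 FPKM in mesoderm and 6.63, 16.5, 3.63 and 10.4 FPKM in P (-1.88 ± 0.21, adjusted p = 0.0113). Sema6a was at 0.789, 3.55, 1.53 and 1.82 FPKM in mesoderm and 4.02, 12.4, 8.97 and 11.5 FPKM in P (-1.83 ± 0.21, adjusted p = 0.0113), without overlap. Efna1 was at 0.963, 2.23, 4.96 and 4.91 FPKM in mesoderm and 2.74, 9.49, 24.2 and 38.1 FPKM in P (-1.80 ± 0.26, adjusted p = 0.0125). Ntn1 (-1.04 ± 0.18) and Slit3 (-0.69 ± 0.12) fell too, each in 4 of 4 embryos. This comparison depends on the settings: no member and no gene was called with a pseudocount of 0.1 or without the filter on low values, 4 members were called without embryo 5 of E7.5, and rescaling to an equal median gave 9 higher and 5 lower members.

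Against the endoderm of the same 4 embryos, mesoderm had 10 of 26 tested members higher and 4 lower, with 30.6% of all genes called higher and 14.4% lower (45% in all). The share of members called lower is near that of all genes. Robo1 was at 2.34, 5.97, 2.79 and 5.90 FPKM in mesoderm and 1.05, 2.03, 1.08 and 1.25 FPKM in endoderm (1.09 ± 0.19, adjusted p = 0.00394), without overlap. Epha4 was at 5.13, 20.0, 12.0 and 20.6 FPKM in mesoderm and 2.84, 8.23, 7.03 and 8.23 FPKM in endoderm (0.94 ± 0.17, adjusted p = 0.0041). Efna3 (0.87 ± 0.16), Efnb2 (0.78 ± 0.13), Plxna2 (0.68 ± 0.12) and Efna1 (0.59 ± 0.12) came next. Ephb3 was at 0.614, 1.64, 1.84 and 1.57 FPKM in mesoderm and 2.90, 5.70, 3.77 and 3.39 FPKM in endoderm (-0.89 ± 0.16, adjusted p = 0.00432), with every mesoderm value below every endoderm value. Epha2 (-0.61 ± 0.16), Sema4b (-0.53 ± 0.15) and Plxnb2 (-0.43 ± 0.14) were the other falls. Nrp1, Sema6d and Efnb1 were not called between these layers. Without the embryo block 2 calls were made, and 7 without embryo 6 of E7.5. Kdr, a receptor, is 1 of 8 blood and endothelium markers. In these pieces it was at 1.24 to 5.36 FPKM in mesoderm and at most 0.683 FPKM in endoderm and P. The 8 markers summed to 10.7 to 25.9 FPKM in mesoderm, 5.49 to 14.9 FPKM in endoderm and 1.96 to 5.02 FPKM in P at E7.0 and E7.5. A mean of 1 FPKM was reached by 2 of the 8 in M, 5 in EA and 4 in EP at E7.0. At E7.5 it was reached by 2 in MP, 3 in MA, 4 in EA and 1 in EP. The other markers of this list are not given singly. The part of these markers in the levels of Nrp1, Robo1 and the other members was not tested.

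**Figure D5:**
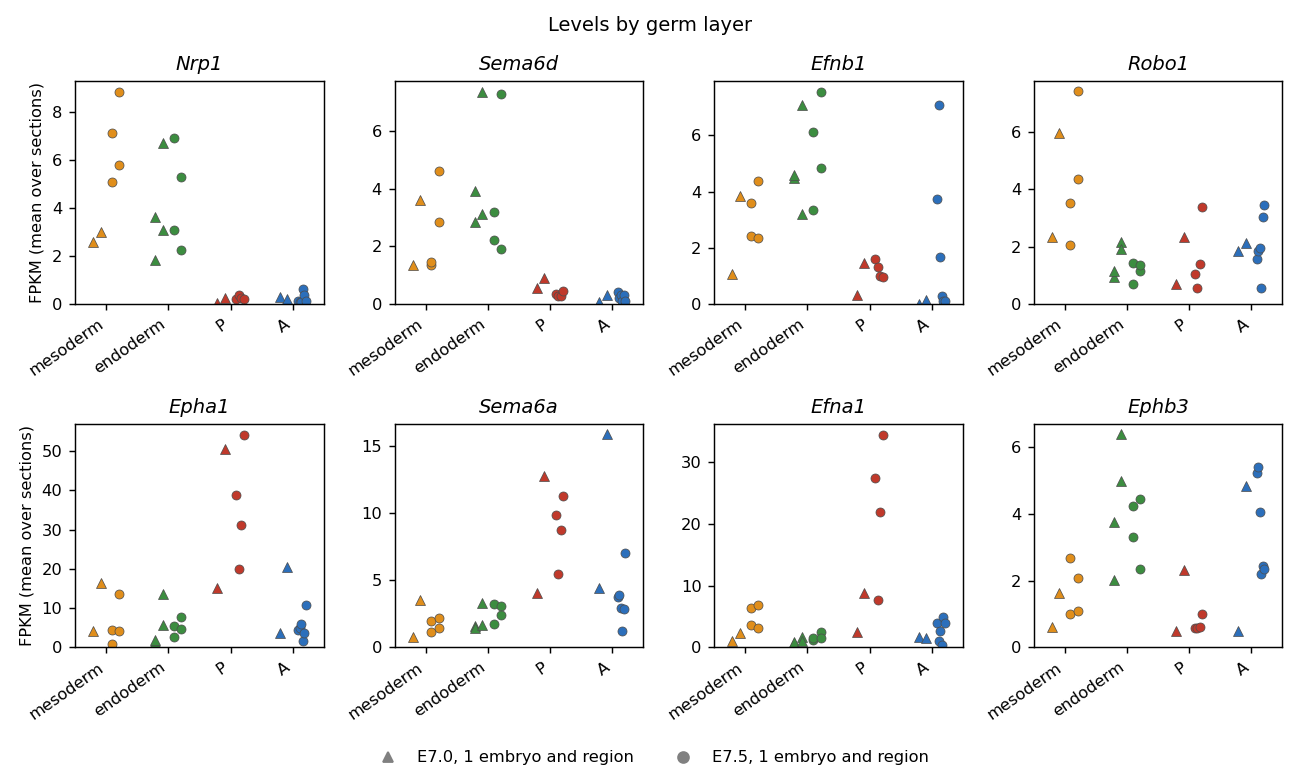
FPKM of 8 members in mesoderm, endoderm, P and A at E7.0 (triangles) and E7.5 (circles), with each point the mean over sections of 1 embryo and region code. Nrp1, Sema6d and Efnb1 are high in mesoderm and endoderm, Epha1 and Efna1 in P, Sema6a in P and A, Robo1 in mesoderm and Ephb3 in endoderm and A.

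Within the E7.5 mesoderm, MP and MA could be set side by side in embryos 5 and 6 and were not tested. Epha1 was at 4.50 and 13.5 FPKM in MP and 0.745 and 4.17 FPKM in MA, Nrp2 at 2.64 and 4.24 FPKM in MP and 1.01 and 1.61 FPKM in MA, and Efna1 at 6.33 and 6.77 FPKM in MP and 3.59 and 3.05 FPKM in MA. Nrp1 was at 5.09 and 5.79 FPKM in MP and 7.15 and 8.87 FPKM in MA, Sema3f at 0.380 and 0.924 FPKM in MP and 1.99 and 2.65 FPKM in MA, and Efna4 at 5.70 and 7.14 FPKM in MP and 10.3 and 12.4 FPKM in MA. The 2 neuropilins thus lay on opposite sides in both embryos, Nrp2 higher in MP and Nrp1 higher in MA.

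Other guidance genes, which are not members, were tested in the same fits, with the shares of all genes as given above. Of 17 further ligands and receptors (among them Dcc, Neo1, Flrt3 and Rgma), 6 were tested between P and A at E7.5 and Flrt3, a membrane protein that binds Unc5 receptors, rose (1.10 ± 0.22, adjusted p = 0.00319), while none fell. Flrt3 was also higher in endoderm than in epiblast (2.13 ± 0.23, the only call among 4 tested) and lower in mesoderm than in endoderm (-1.76 ± 0.22). Between E7.5 and E6.5, Flrt3 and Rgma, a ligand of neogenin and co-receptor for BMPs, rose in P (2.51 ± 0.41 and 1.48 ± 0.28, 2 of 10 tested) and in A (1.55 ± 0.40 and 2.57 ± 0.36, 2 of 7 tested).

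Of 34 genes that act inside the cell below these receptors, 24 were tested between P and A at E7.5, and 5 were higher in P and none lower, against 10.1% and 3.13% of all genes. The 4 with the smallest p were Abl1 (0.59 ± 0.15), Rasa1 (0.50 ± 0.14), Farp1 (0.58 ± 0.17) and Srgap2 (0.46 ± 0.14). In endoderm 1 of 20 was higher and 13 lower than in epiblast, near the 59.6% of all genes called lower. The falls were led by Dpysl2 (-1.93 ± 0.20), known as a mediator of the semaphorin response, and the kinase Pak1 (-1.34 ± 0.18). In mesoderm against endoderm 9 of 20 were higher and none lower, against 30.6% and 14.4% of all genes, with Dpysl2 at 1.61 ± 0.21. In mesoderm against P 1 of 20 was higher and 7 lower, against 3.64% and 44.7% of all genes, with Pak1 at -0.77 ± 0.15.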

How the data were processed

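The authors deposited 1 table of FPKM values per gene and library for each of 18 embryos. Per the submitters' processing notes, TopHat2 2.0.8b, Cufflinks 2.1.1 and the mm10 genome were used; pooling of reads is not given in the sources used here. Per the labels' protocols, pieces were cut by laser microdissection from OCT-embedded cryosections and libraries were made with a transposase kit. Columns were tied to samples by label: 473 of 584 columns were used and 111 were not, because their names match no given sample. Genes at 0 in every used library numbered 760. FPKM sums per library ran from 53064 to 1806706, and 2683 to 11319 genes (median 8949) reached 1 FPKM. In 4 libraries 1 gene held over 50% of the sum.

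Regions were compared by per-embryo means of within-section differences of log2(FPKM + 1) (pseudocount 1), in limma 3.58.1 with R 4.3.3, with trend and robust options, all stages of a contrast sharing 1 spread. P minus A used sections 2 and up. Stage comparisons used libraries rescaled to a sum of 1000000. The code was tested on simulated data. Same-embryo P and A libraries of E6.5 and E7.5 deviated together (r of 0.66 to 0.889 over 9541 genes and 0.456 to 0.752 over 10082 genes, each within an embryo), so the embryo served as the block, since both regions come from the same animal. Gene coordinates and overlaps came from GENCODE vM21 (GRCm38) and promoters from RefSeq (GRCm38.p6). Figures were drawn with matplotlib 3.10.9.

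Members, lists and tests were chosen with earlier results of these data known. Genes named with full values were, per comparison, up to 6 called members with the largest difference in each direction, the 8 with the highest mean, and the leading member of each family; of the 2 lists of other genes, up to 4 with the smallest p. Sema6a and other members on mouse chromosome 18 have no sequence shown.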

Additional observations from a re-analysis of the deposited data

Results flagged for a closer look

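Of 114 sets of 4 to 10 embryo values examined for called members, 3 had an embryo that stood apart by Dixon's criterion, which chance alone meets in about 1 of 20 sets. For Ntn1 between P and A at E7.5, embryo 6 had a difference of 1.52 on the log2 scale and each of the other embryos 1.95. For the slope of Efna1 along P at E7.5, embryo 4 had 1.57 on the log2 scale and the other embryos 4.76 to 4.82. For Epha4 in P at E7.5, embryo 3 had a mean of 4.61 in log2 of the rescaled level and the others 4.90 to 4.95.

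The difference between P and A changed between E6.5 and E7.5 by the test of the change itself for 7 members. On the log2 scale, E7.5 minus E6.5, the change was 1.96 for Efna1, 1.76 for Epha1, 1.56 for Epha4, 1.38 for Ntn1, 1.33 for Sema6a, 1.31 for Plxna2 and -1.07 for Sema4a. The slope along P changed by -3.65 for Epha2.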

How the results depend on the processing

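No named member changed its direction under an alternative; of the alternatives for named members 1110 kept the call and 345 lost it. Counts below are members called. P minus A at E5.5 (1) gave 0 with libraries rescaled to an equal median, 5 with a pseudocount of 0.1, 3 without the filter, 0 with the stage alone, 2 with section 1 added at later stages (chosen after seeing the data) and 1 to 5 with an embryo left out. P minus A at E6.0 (0) gave 0 to 1. P minus A at E6.5 (3) gave 0 with an equal sum, 0 with the pseudocount of 0.1, 1 without the filter and 0 to 1 with an embryo left out. P minus A at E7.0 (9) gave 0 with the stage alone and 2 to 6. P minus A at E7.5 (14) gave 9 with the stage alone and 11 to 15. Endoderm minus epiblast (22) gave 18 to 24. Mesoderm minus P (17) gave 8 with an equal sum, 0 with the pseudocount of 0.1, 0 without the filter and 4 to 15. Mesoderm minus endoderm (14) gave 24 with an equal sum, 5 without the filter and 7 to 22. EP minus EA (0) gave 0 to 2.

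The P slope at E6.5 (7) gave 1 with an equal sum, 1 with an equal median, 2 without the filter and 2 to 8 with an embryo left out. The P slope at E7.0 (8) gave 5 with an equal median, 5 with the pseudocount of 0.1, 3 without the filter, 3 with the stage alone, 4 without section 1 (chosen after seeing the data) and 1 to 6. The P slope at E7.5 (3) gave 1 with the stage alone and 2 to 5. The A slope at E6.5 stayed at 0. A, E7.5 minus E6.5 (3) gave 6 with an equal median, 1 with the pseudocount of 0.1 and 1 to 8. P, E7.5 minus E6.5 (14) gave 13 to 15, the change of P minus A (7) gave 5 to 9 and that of the P slope (1) gave 1 to 2. The cause was not tested.

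Without the replicate block by embryo, P minus A gave 0 members at E5.5, 0 at E6.5, 3 at E7.0 and 9 at E7.5, endoderm minus epiblast 14, mesoderm minus P 6 and mesoderm minus endoderm 2. Leaving out the P library of section 5 of E6.0 embryo 1 (chosen after seeing the data) gave 3, 0, 3, 9 and 14 members for P minus A from E5.5 to E7.5. The median of all genes was off 0 in several comparisons: -0.47 for endoderm minus epiblast (-0.25 with an equal sum, -0.57 with an equal median), -0.24 for mesoderm minus P (-0.12, -0.03), 0.17 for mesoderm minus endoderm (0.11, 0.32), 0.40 and 0.42 for the P slope at E6.5 and E7.5 (0.07, 0.05 and 0.05, 0.10) and 0.19 for P, E7.5 minus E6.5 (-0.18 with an equal median), so differences of that size are no more than those of a typical gene.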

Other observations

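The most distal A pieces of E7.5, present in embryos 1, 2 and 3, held members that were low in the rest of A. Epha2 was at 16.0, 6.06 and 13.1 FPKM in section 1 of these embryos and at 0.579, 0.621 and 1.17 FPKM in section 2. Efnb1 was at 12.0, 20.3 and 6.05 FPKM in section 1 and at 1.79, 2.62 and 1.23 FPKM in section 9. Ntn1 was at 8.41, 7.36 and 3.07 FPKM in section 1 and at 0, 1.26 and 0 FPKM in section 9. Efna5 ran the other way, at 4.09, 2.77 and 2.66 FPKM in section 1 and 12.0, 9.10 and 6.07 FPKM in section 9. Section 1 of the same embryos also had 1216, 237.7 and 299.2 FPKM of the streak and notochord gene T and 70.2, 25.3 and 26.5 FPKM of Foxa2, while section 9 had 0.223, 1.10 and 2.05 FPKM of T. The section 9 piece of embryo 1 also held 8266 FPKM of Hba-a1. All these values were picked after they were seen and were not tested, and the other 3 embryos have A pieces of sections 3, 6 and 9 only.

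In the E6.0 library that stands apart, Epha3 was at 9.41 FPKM and Nrp2 at 7.51 FPKM, while the other 3 P sections of that embryo had at most 0.245 FPKM of Epha3 and 0.449 FPKM of Nrp2.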
